A study of Rattus norvegicus with 35 samples.

Results

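Of the 35 arrays of a series on triazole fungicides in primary rat hepatocytes, 6 make up the comparison described here: 3 titled myclobutanil 100 uM against 3 titled myclobutanil 30 uM, paired by the code Rs256, Rs293 or Rs304 in their titles. Primary hepatocytes are liver cells taken from the animal and kept in culture. They were exposed through the medium for 72 h, and their total RNA was read on Affymetrix rat expression arrays, 1 array per sample. The groups used below are myclobutanil at 100 and 30 uM, propiconazole and triadimefon at the same 2 doses, myclobutanil at 10 uM, and the vehicle DMSO at 0.1%, each with 3 arrays, 1 per code. The fit that called genes took its spread from all 35 arrays. It also held phenobarbital at 200 uM, propiconazole and triadimefon at 10 uM, and PCN at 30 uM, which has no Rs256 array. The design text calls the arrays of a group biological replicates, but what the code marks is not given, nor are the strain, sex and age of the rats. The p-values therefore measure the spread between these arrays. The arrays were chosen by their titles.

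Triazoles block fungal sterol demethylase, the product of Cyp51, and mammals carry the same enzyme in the pathway that makes cholesterol. Liver cells sense a fall in membrane sterol through the SREBP system, whose transcription factors drive the genes of cholesterol and unsaturated fatty acid synthesis. The fatty acid receptor PPARalpha drives the genes that burn fatty acids, and the xenobiotic receptors CAR and PXR drive the cytochromes P450, glucuronosyltransferases and pumps that clear drugs. The comparison asked which genes moved between 30 and 100 uM, and whether the movement over this step exceeded the one before it.

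Of the hepatocyte markers, 6 of 6 measured lay above the array median in each of the 6 arrays. Albumin, the brightest, is held at 1 value by the normalization and is not reported. Many markers of other liver cells were not above the median in any of the 6 arrays: 10 of 13 endothelial markers (Pecam1, Kdr and Stab2 among them), 10 of 19 stellate cell markers (Col1a1, Col1a2 and Dcn among them), 7 of 16 macrophage markers (Adgre1 and Cd163 among them) and 3 of 8 cholangiocyte markers (Cftr, Muc1 and Spp1). Others lay above it in all 6 arrays: 2 endothelial, 3 stellate cell, 5 macrophage and 1 cholangiocyte marker, so other cells were not shown to be absent. The mean level of the tested cholangiocyte markers was 0.328 to 0.396 in the 100 uM arrays and 0.445 to 0.711 in the 30 uM arrays, without overlap (exact permutation test, two-sided, p = 0.1, the smallest that 3 against 3 arrays allow). The shift was uneven: the median change of these markers was -0.03 in Rs256, -0.36 in Rs293 and -0.04 in Rs304. None of the 5 tested cholangiocyte markers was called, beside 0.658% of all genes. The part of this shift in the results was not tested, and in a culture fewer cells of a type and less RNA per cell cannot be told apart. The macrophage, stellate and endothelial means differed by 0.03, -0.03 and 0.01, with exact p between 0.5 and 1. These tests take no account of the codes, and the macrophage mean was higher at 100 uM within each code. The 3' minus 5' difference of the Actb probe sets, a sign of RNA integrity, averaged 0.742 in the 100 uM arrays and 0.706 in the 30 uM arrays (exact p = 0.8), and that of Gapdh 0.192 and 0.167 (exact p = 0.6), with the 100 uM array the higher within each code. The part of these shifts in the results was not tested.

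At 100 uM, 7 of 24 genes of cholesterol synthesis and 2 of 27 of fatty acid synthesis and desaturation were called higher than at 30 uM, and 8 of 27 targets of PPARalpha, most of which burn fatty acids, were called lower. Of the drug clearance genes under CAR and PXR none of 20 tested was called, which at the share called over all genes is unremarkable, among them Cyp2c6v1 and Ugt2b1, which were called against DMSO at 30 uM. Among 10490 genes, 69 were called (0.658%), 34 of them higher (0.324%) and 35 lower (0.334%) at 100 uM. A gene was called when its p from limma, with the Rs code as a replicate block and adjusted over all genes by Benjamini and Hochberg, was below 0.05. Changes are differences in units of the deposited log-like scale, whose base is not given, after quantile normalization, so they are not folds. The median change over all genes was 0.00.

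The calls depended on how the arrays were normalized and paired. Without the block 1 gene was called (Acat2), and on the values as deposited 0 were, with 419 genes at an unadjusted p under 0.05 against 1139 after normalization. Without the 30 uM array of Rs304, 6 genes were called, and without all Rs304 arrays 0 (402 at an unadjusted p under 0.05). Where no gene changes, a share of 0.05 of the 10490 genes is expected under that threshold. The counts of 419 and 402 lie below that share, which also applies to the like counts given further on. All 69 moved the same way within each of the 3 codes, as genes called by a test within codes tend to do, while 4084 of all 10490 did. For 26 of the 34 higher and 17 of the 35 lower genes the arrays of the 2 doses did not overlap, against 611 of all genes (5.82%). The genes were called on these same arrays, so this is not added support.

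**Figure D1:**
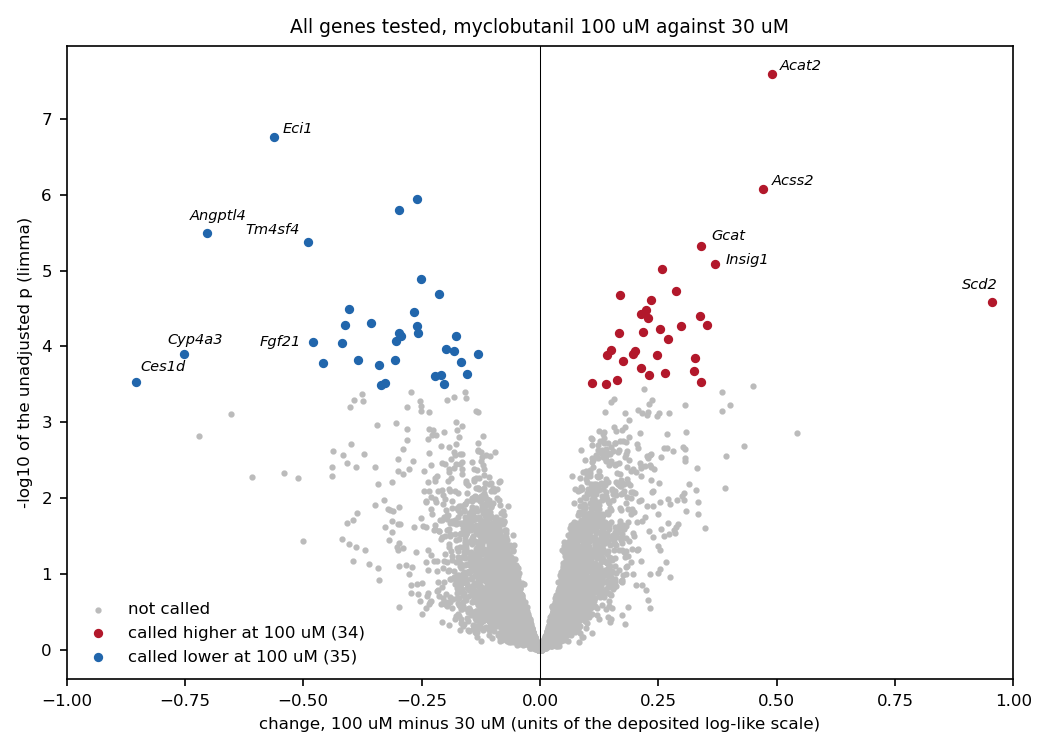
Change between myclobutanil 100 uM and 30 uM (horizontal axis, units of the deposited log-like scale) against the -log10 of the unadjusted p (vertical axis), 1 point per gene tested. Red points are the 34 genes called higher at 100 uM and blue points the 35 called lower; Scd2 had the largest rise, 0.95, and Ces1d the largest fall, -0.85.

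The sterol genes called at 100 uM ran from the first step of the pathway to near its last. Acat2, the thiolase that joins acetyl-CoA units at its head, read 1.46, 1.73 and 1.62 in the 100 uM arrays of Rs256, Rs293 and Rs304, against 1.08, 1.18 and 1.08 in the 30 uM arrays of the same codes. The groups did not overlap, and the change of 0.49 (SE 0.061, adjusted p 0.000274) was the one with the smallest p of all genes. Fdft1, squalene synthase, read 1.91, 2.11 and 1.94 at 100 uM, against 1.66, 1.84 and 1.61 at 30 uM, again without overlap, and rose by 0.29 (SE 0.055, adjusted p 0.0157). Sqle, which oxidizes squalene, read 2.31, 2.35 and 2.12 at 100 uM, against 2.15, 2.06 and 1.89 at 30 uM. Its lowest 100 uM array, that of Rs304, lay below the 30 uM array of Rs256, yet each code moved up, and the rise was 0.23 (SE 0.046, adjusted p 0.0202).

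Late in the pathway, Tm7sf2, a sterol reductase that acts just after the Cyp51 step, read 1.54, 2.07 and 1.66 at 100 uM and 1.09, 1.82 and 1.38 at 30 uM. The groups overlapped, with Rs293 high at both doses, while the differences within codes were 0.45, 0.25 and 0.28 (change 0.33, SE 0.073, adjusted p 0.0312). Sc5d, the sterol desaturase near the end of the pathway, read 2.41, 2.27 and 2.30 at 100 uM and 2.14, 2.08 and 2.07 at 30 uM, without overlap, and rose by 0.23 (adjusted p 0.0418). Cyp51 itself, the enzyme the fungicides are made to block, read 2.61, 2.96 and 2.70 at 100 uM and 2.26, 2.71 and 2.38 at 30 uM. It was 0.35, 0.25 and 0.32 higher within the 3 codes but was not called (change 0.31, SE 0.093, adjusted p 0.152).

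Insig1 and Stard4 were the called members that sense or carry sterol. Insig1, the SREBP target that holds the SREBP system in the endoplasmic reticulum when sterol is plentiful, read 3.30, 3.40 and 3.12 at 100 uM, against 3.03, 2.94 and 2.74 at 30 uM, and rose by 0.37 (SE 0.066, adjusted p 0.00945). Stard4, a cholesterol carrier of the cytosol, read 0.71, 0.54 and 0.62 at 100 uM, against 0.49, 0.29 and 0.45 at 30 uM (change 0.21, SE 0.043, adjusted p 0.0198). In both genes all 100 uM arrays lay above all 30 uM arrays. Of the 29 sterol synthesis genes listed, 24 were tested, 7 were called higher and 0 lower, beside 0.324% of all genes called higher. A positive change was seen in 23 of them and in 52.1% of all genes. Their median change was 0.21 (0.21 in Rs256, 0.20 in Rs293 and 0.22 in Rs304), beside 0.00 over all genes. Ggps1 (-0.03) was the 1 member below 0, and Srebf2, the gene of the transcription factor itself, was at 0.01 without a call. Without the block 1 of the 7 calls was left, on the values as deposited 0 of them with a median of 0.22, and without the Rs304 arrays 0 with a median of 0.21.

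The promoters of 4 genes called higher are shown because they carry the CCAAT box bound by NF-Y, a factor known to work beside SREBP at sterol genes. Each runs from 250 bases before to 50 bases after the start of the gene, 5' to 3' on the gene's own strand, from RefSeq on the build GRCr8, with every CCAAT or its reverse complement ATTGG in capitals.
Insig1 (chr4:8057720-8058019, minus strand): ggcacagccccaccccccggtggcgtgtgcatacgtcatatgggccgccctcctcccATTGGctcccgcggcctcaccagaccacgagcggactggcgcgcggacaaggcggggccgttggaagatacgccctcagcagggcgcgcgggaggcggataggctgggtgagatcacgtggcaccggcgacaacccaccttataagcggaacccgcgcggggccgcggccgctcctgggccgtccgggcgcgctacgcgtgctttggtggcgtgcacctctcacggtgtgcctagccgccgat
Tm7sf2 (chr1:212789492-212789791, minus strand): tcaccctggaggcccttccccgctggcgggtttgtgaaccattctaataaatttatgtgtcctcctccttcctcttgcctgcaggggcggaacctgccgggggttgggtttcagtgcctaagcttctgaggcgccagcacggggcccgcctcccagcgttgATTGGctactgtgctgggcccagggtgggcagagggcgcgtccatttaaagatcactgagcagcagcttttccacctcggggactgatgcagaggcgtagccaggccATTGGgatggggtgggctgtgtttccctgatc
Sc5d (chr8:51538228-51538527, minus strand): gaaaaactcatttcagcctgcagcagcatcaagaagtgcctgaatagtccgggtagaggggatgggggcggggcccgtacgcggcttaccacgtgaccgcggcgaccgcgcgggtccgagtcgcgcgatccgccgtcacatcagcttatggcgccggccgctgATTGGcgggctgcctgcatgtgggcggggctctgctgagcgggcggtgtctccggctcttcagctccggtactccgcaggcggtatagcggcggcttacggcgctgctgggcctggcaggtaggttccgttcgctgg
Scd2 (chr1:253118127-253118426, plus strand): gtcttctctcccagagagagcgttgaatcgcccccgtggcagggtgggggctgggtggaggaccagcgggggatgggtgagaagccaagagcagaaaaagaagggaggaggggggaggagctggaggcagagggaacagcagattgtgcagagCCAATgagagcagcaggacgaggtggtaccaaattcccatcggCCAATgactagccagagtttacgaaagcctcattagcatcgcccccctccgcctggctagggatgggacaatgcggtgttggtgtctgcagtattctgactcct

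Of the 24 sterol genes tested, 20 had a promoter in the table, and 16 of these (80%) held CCAAT on either strand. Of 8760 promoters of all genes tested 37.6% did, and of all 27457 promoters 37.7%. Among the 34 genes called higher, 25 had a promoter and 12 held the box, and among the 35 called lower, 26 had one and 10 held it. Acat2 had a promoter without it, and Fdft1, Sqle and Stard4 were not matched. These are matches of letters in a window of 300 bases and nothing more, and CCAAT was the 1 motif searched for.

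Scd2, a stearoyl-CoA desaturase that puts the double bond into new fatty acids, read 2.21, 2.74 and 1.83 at 100 uM, against 1.43, 1.69 and 0.79 at 30 uM. The change of 0.95 (SE 0.185, adjusted p 0.0168) was the largest among the called genes, the groups did not overlap, and all 4 Scd2 probe sets were higher, by 0.20 to 0.95. At 30 uM it stood 0.79 above DMSO, without a call. Fads2, which desaturates long fatty acids, read 0.97, 1.01 and 1.05 at 100 uM and 0.57, 0.72 and 0.73 at 30 uM, and rose by 0.34 (SE 0.068, adjusted p 0.0199).

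Acss2, which makes acetyl-CoA from acetate and is an SREBP target, read 2.55, 2.46 and 2.10 at 100 uM, against 2.08, 1.93 and 1.69 at 30 uM. It rose by 0.47 (SE 0.072, adjusted p 0.00293) with no overlap, and its values at 10 and 30 uM differed from DMSO by -0.03 and 0.08. Of the 27 fatty acid synthesis and desaturation genes tested, Scd2 and Fads2 were called higher and 0 lower, beside 0.324% and 0.334% of all genes. Their median change was 0.09. Fads1 (0.40), Pnpla3 (0.33) and Fasn (0.30), fatty acid synthase, were higher without a call, and Srebf1 was at -0.03.

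The lower genes were led by targets of PPARalpha. Eci1, an isomerase of fatty acid oxidation in the mitochondrion, read 1.80, 2.04 and 2.21 at 100 uM, against 2.31, 2.63 and 2.79 at 30 uM. The groups did not overlap and the fall was 0.56 (SE 0.078, adjusted p 0.000917). A second Eci1 probe set did not share it, at 0.03. Acadl, the long-chain acyl-CoA dehydrogenase, read 2.45, 2.55 and 2.63 at 100 uM, against 2.70, 2.90 and 2.93 at 30 uM (change -0.30, SE 0.048, adjusted p 0.00335), again without overlap. Decr1, which readies unsaturated fatty acids for oxidation, read 1.62, 1.57 and 1.88 at 100 uM and 1.86, 2.08 and 2.34 at 30 uM. It fell in each code, by least in Rs256 (differences -0.24, -0.51 and -0.46, adjusted p 0.0192). Acadvl, the very-long-chain dehydrogenase, read 1.39, 1.35 and 1.35 at 100 uM, against 1.49, 1.59 and 1.61 at 30 uM, and changed by -0.20 (adjusted p 0.0481).

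Cyp4a3, a P450 that hydroxylates fatty acids at their end, read 1.64, 1.39 and 1.67 at 100 uM, against 2.20, 2.19 and 2.57 at 30 uM, and changed by -0.75 (SE 0.166, adjusted p 0.0291) without overlap. Cyp4a1 showed a change of like size, -0.72, with a wider error (SE 0.202) and was not called (adjusted p 0.122). Its arrays read -0.03, 0.43 and 0.50 at 100 uM and 0.46, 1.30 and 1.30 at 30 uM, so they overlapped. Fabp1, the fatty acid binding protein of liver, read 0.81, 0.24 and 0.98 at 100 uM and 1.11, 1.11 and 1.64 at 30 uM and was not called either (change -0.61, SE 0.199, adjusted p 0.199), although its arrays did not overlap.

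Outside the oxidation enzymes the called PPARalpha targets were Angptl4, Fgf21 and Vnn1. Angptl4, an inhibitor of lipoprotein lipase, read 0.99, 1.29 and 1.24 at 100 uM, against 1.60, 2.15 and 1.88 at 30 uM, and changed by -0.70 (SE 0.118, adjusted p 0.00553). All 3 high-dose arrays lay below all 3 arrays at 30 uM. Fgf21, the fasting hormone of liver, read 0.81, 0.95 and 1.24 at 100 uM, against 1.25, 1.53 and 1.67 at 30 uM (change -0.48, SE 0.102, adjusted p 0.0247), and the highest 100 uM array lay just below the lowest at 30 uM. Vnn1, the membrane enzyme pantetheinase, read 0.50, 1.25 and 1.11 at 100 uM and 0.88, 1.63 and 1.61 at 30 uM. The groups overlapped, with Rs256 low at both doses, and it fell within each code (-0.38, -0.38 and -0.49, adjusted p 0.0252).

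Of 33 PPARalpha targets listed, 27 were tested, 8 were called lower and 0 higher, beside 0.334% of all genes called lower. Hadhb (0.05) was the 1 member with a positive change, against 52.1% of all genes. Their median change was -0.30, beside 0.00 over all genes, and it was -0.17 in Rs256, -0.26 in Rs293 and -0.43 in Rs304. Members that missed the call had changes down to -0.72 (Cyp4a1), with Cpt1a at -0.54, Creb3l3 at -0.51 and Pdk4 at -0.39 among them. Without the block, on the values as deposited and without the Rs304 arrays 0 members were called, with medians of -0.30, -0.25 and -0.23. This list and that of sterol synthesis were chosen with earlier results of these arrays known, so their direction is not independent evidence.

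**Figure D2:**
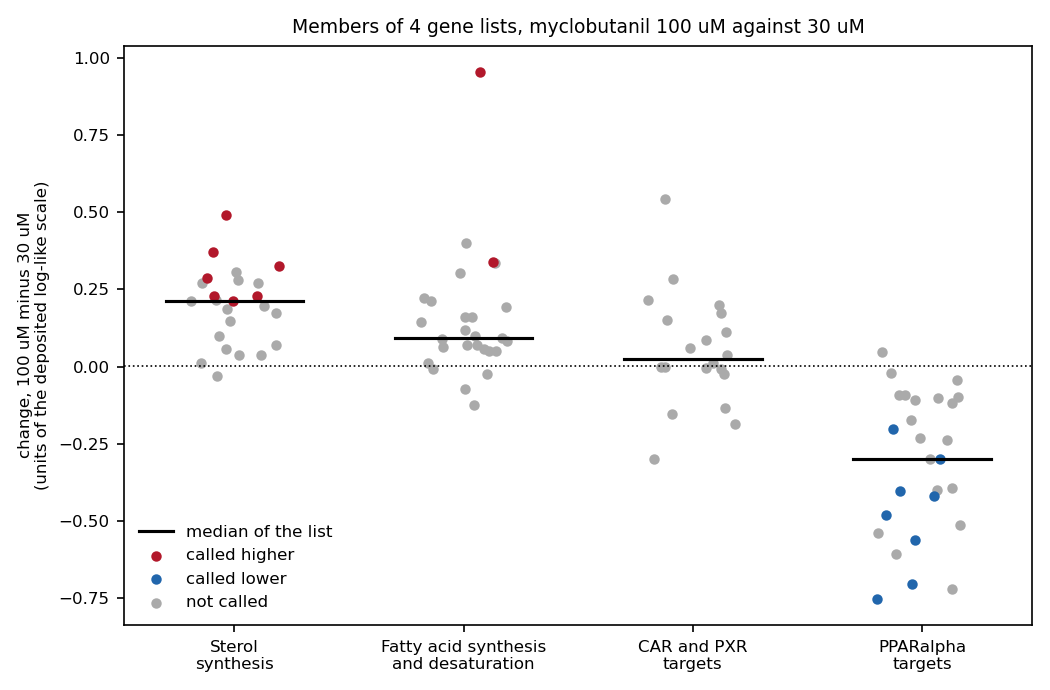
Change between myclobutanil 100 uM and 30 uM (vertical axis, units of the deposited log-like scale) for each tested member of 4 gene lists. Red points were called higher, blue points lower and grey points not; bars are list medians (0.21, 0.09, 0.03 and -0.30) and the dotted line is the median of all genes.

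Among other genes of lipid handling, Ces1d, a carboxylesterase that mobilizes stored triglyceride, had the largest fall of all called genes. It read -0.16, 0.03 and 0.27 at 100 uM, against 0.62, 0.74 and 1.33 at 30 uM (change -0.85, SE 0.202, adjusted p 0.0481). The groups did not overlap, and at 30 uM it had stood at -0.70 against DMSO without a call. Scp2, which carries sterols and cuts bile acid precursors in the peroxisome, changed by -0.17 (adjusted p 0.0319) and was the 1 member of 22 bile acid genes called. Cyp2a2, a P450 of male rat liver, changed by -0.30 (adjusted p 0.0245) and was the 1 of 21 other P450s called. Over all genes 0.334% were called lower and 0.658% in either direction. Cyp7a1, which commits cholesterol to bile acids, differed by -0.16, 0.27 and -0.41 within the codes, with no common direction.

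Genes outside these lists included several with clear separation. Gcat, an enzyme of threonine breakdown in the mitochondrion, read 1.10, 1.03 and 1.17 at 100 uM, against 0.83, 0.68 and 0.77 at 30 uM (change 0.34, adjusted p 0.0062). Fgr, a Src-family tyrosine kinase, read 0.22, 0.34 and 0.36 at 100 uM, against 0.52, 0.57 and 0.61 at 30 uM (change -0.26, SE 0.041, adjusted p 0.00301). In both genes the arrays of the 2 doses did not overlap. Sdf2l1, an endoplasmic reticulum folding protein, rose by 0.34 (adjusted p 0.0481), with differences of 0.54, 0.14 and 0.33 within codes. It was the 1 of 33 endoplasmic reticulum stress and ATF4 genes called higher, and Fgf21, also on that list, the 1 called lower. Over all genes the shares were 0.324% and 0.334%.

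Further called rises were 0.35 in Vegfb, a vascular growth factor, 0.32 in Lonp1, a protease of the mitochondrial matrix, 0.30 in Gucy2c, a guanylate cyclase receptor, and 0.23 in Stat2, a factor of interferon signalling. Further called falls were -0.49 in Tm4sf4, a membrane protein of the tetraspan type, -0.46 in Neurl3, a ubiquitin ligase, -0.41 in Cav1, the coat protein of caveolae, and -0.38 in Qprt, which makes NAD from quinolinate. St8sia3, a sialyltransferase, changed by -0.36, Pnrc1, a nuclear receptor coactivator, by -0.25, Hmgn2, a nucleosome binding protein, by -0.21, and Acot3, an acyl-CoA thioesterase, by -0.21. Over all called genes the rises had sizes between 0.11 and 0.95 with a median of 0.24, and the falls sizes between 0.13 and 0.85 with a median of -0.30. A size of 0.5 or more was reached by 1 rise and 4 falls.

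**Figure D3:**
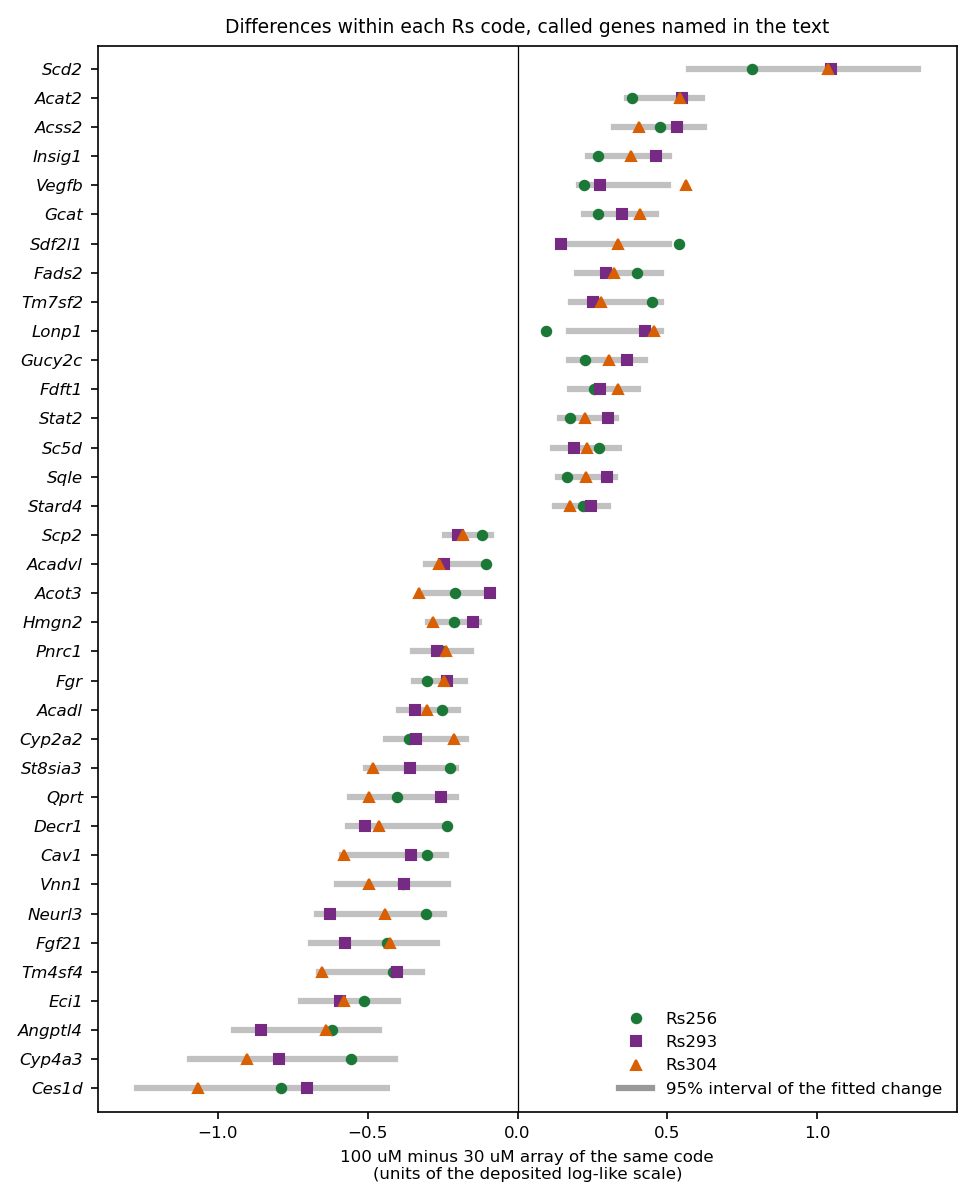
Difference between the 100 uM and the 30 uM array of the same Rs code (horizontal axis, units of the deposited log-like scale) for the called genes named in the text, 1 symbol per code, with the 95% interval of the fitted change as a grey bar. In every gene shown all 3 codes lie on the same side of 0, from Scd2 (0.78, 1.05 and 1.03) to Ces1d (-0.79, -0.70 and -1.07).

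Cyp2c6v1 and Ugt2b1, called against DMSO at 30 uM, were followed through the doses. Cyp2c6v1, a P450 raised by CAR and PXR ligands, read 1.93, 1.42 and 0.92 in the DMSO arrays, 2.74, 2.11 and 2.08 at 10 uM, 3.17, 2.59 and 2.63 at 30 uM and 3.26, 2.78 and 2.47 at 100 uM. It stood above DMSO by 0.89, 1.37 and 1.41 at the 3 doses, all called. The difference of 100 from 30 uM was 0.04 (SE 0.128, 95% interval -0.23 to 0.30). Ugt2b1, which glucuronidates steroids and drugs, read 2.55, 2.31 and 2.50 in DMSO, 3.02, 2.89 and 2.98 at 10 uM, 3.12, 3.29 and 3.14 at 30 uM and 2.99, 3.32 and 3.23 at 100 uM. The difference of 100 from 30 uM was -0.0011 with an interval of -0.20 to 0.20, while it had stood 0.73 above DMSO at 30 uM (adjusted p 0.000529).

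Cyp3a23-3a1, the classical PXR target of rat liver, read 3.32, 2.52 and 2.52 in DMSO, 3.56, 3.08 and 3.12 at 10 uM, 3.66, 3.66 and 3.51 at 30 uM and 3.69, 3.72 and 3.67 at 100 uM, so Rs256 was the highest in DMSO and the other codes lay close to it at 30 uM. Its difference of 100 from 30 uM was 0.09 (interval -0.23 to 0.40). Abcc2, a pump that exports conjugates into bile, was the largest of the list over this step: it read 3.11, 3.22 and 3.12 at 100 uM, against 2.70, 2.50 and 2.61 at 30 uM, without overlap, and was not called (change 0.54, SE 0.150, adjusted p 0.116). Of 20 CAR and PXR targets tested 0 were called by limma, which is near the share over all genes (0.658%) and says nothing particular of the list, and 11 had a positive change, with a median of 0.03. Against DMSO their median was 0.04 at 10 uM, 0.24 at 30 uM and 0.29 at 100 uM. Probe sets of the P450 and Ugt families can also report close relatives of the gene they name.

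**Figure D4:**
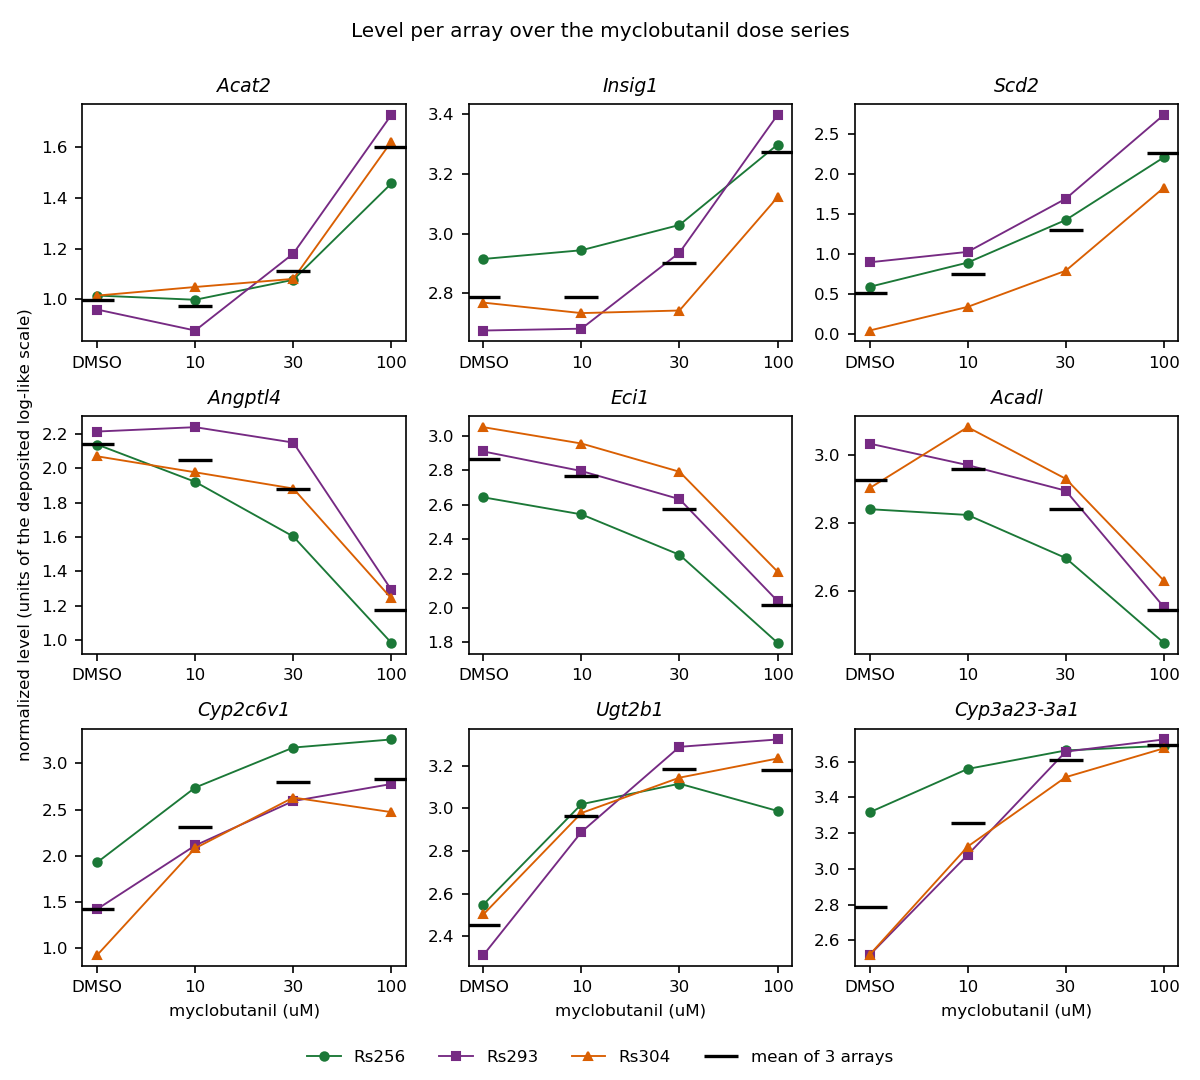
Normalized level (vertical axes, units of the deposited log-like scale) of 9 genes in each array of DMSO and of myclobutanil at 10, 30 and 100 uM (horizontal axes, doses evenly spaced), 1 line per Rs code and a bar for the mean of 3 arrays. Acat2, Insig1 and Scd2 end higher at 100 uM, Angptl4, Eci1 and Acadl lower, and Cyp2c6v1, Ugt2b1 and Cyp3a23-3a1 differ by 0.04, -0.0011 and 0.09 between 100 and 30 uM.

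Whether a movement belonged to the top dose was tested as the step between 30 and 100 uM minus the step between 10 and 30 uM. Of the 10490 genes 0 were called (0%), 98 had an unadjusted p under 0.05 in limma and 18 without the block. No gene was therefore shown to move more over the top step than over the one before it. No gene was near a call, and 98 of 10490 lies below the share of 0.05 expected where no gene changes. Among genes called over the top step, Fgr had the smallest p, with -0.26 over that step and -0.01 over the earlier one (unadjusted p 0.00172). Acat2 moved by 0.49 and 0.14 (unadjusted p 0.00287). Acot3, Pnrc1, Hmgn2, Stat2 and Acss2 came next among the called genes, with differences between the steps of -0.27, -0.26, -0.22, 0.23 and 0.36. The top step is part of this contrast, so genes called over it tend to rank high here, and their rank is not evidence for the top dose.

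Lower at the top dose without a call were Cyp2c11, the main P450 of male rat liver, and Pmp22, a membrane protein best known from myelin, both among the 10 genes with the smallest p. Cyp2c11 read 2.78, 2.64 and 2.96 in DMSO, 2.89, 2.91 and 3.14 at 10 uM, 2.94, 3.21 and 3.22 at 30 uM and 2.75, 2.76 and 3.03 at 100 uM. It was highest at 30 uM in each code, but neither its difference over the top step (-0.28, adjusted p 0.113) nor the difference between steps (-0.42, SE 0.133, unadjusted p 0.00376) passed the test. Pmp22 read 1.24, 1.18 and 1.52 at 100 uM, against 1.45, 1.34 and 1.72 at 30 uM (change -0.19, adjusted p 0.352). Serpina1, the protease inhibitor alpha-1-antitrypsin, was also among the 10 and stood at 0.07 over the top step and -0.07 over the earlier one.

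The steps and the comparisons with DMSO share arrays, so their values are given side by side and not set against each other as evidence. Over all 10490 genes, 1 was called against DMSO at 10 uM (Cyp2c6v1, 0.00953%), 2 at 30 uM (Cyp2c6v1 and Ugt2b1, 0.0191%) and 1038 at 100 uM (9.9%), 528 higher (5.03%) and 510 lower (4.86%). Without the block the counts were 0, 1 and 127, so the call of Cyp2c6v1 at 10 uM was lost, and at 10 uM 21 genes had an unadjusted p under 0.05. At 10, 30 and 100 uM, Acat2 stood at -0.02, 0.12 and 0.61 against DMSO. Insig1 stood at 0.00, 0.12 and 0.49, Eci1 at -0.10, -0.29 and -0.85, and Angptl4 at -0.09, -0.26 and -0.97. The 10 uM and DMSO arrays are not part of the top step: there the 34 genes called higher had a median of 0.01, with 19 of them positive, and the 35 called lower a median of -0.04, with 7 positive, while 50.5% of all genes were positive.

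The same dose step of propiconazole, a triazole with a dioxolane ring, used other arrays and moved far more genes. It had 2009 genes called (19.2%), 1015 higher (9.68%) and 994 lower (9.48%) at 100 uM against 30 uM, and 492 without the block. Of the 34 genes that rose with myclobutanil 34 were also positive there and 26 called higher, and of the 35 that fell 35 were negative and 32 called lower, while 53.1% of all genes were positive. Triadimefon, whose side chain carries a ketone, had 4 genes called (0.0381%), 2 higher (0.0191%) and 2 lower (0.0191%), and 0 without the block (354 at an unadjusted p under 0.05). The 34 and the 35 genes again lay on the same side as with myclobutanil without exception, of which 2 and 1 were called, while 57.3% of all genes were positive. The arrays of the 3 compounds share the Rs codes. The propiconazole 30 uM array of Rs293 stood apart, with the widest spread of all arrays (SD 0.937 as deposited, against 0.645 to 0.751 in the others). Its 3' minus 5' differences were also the largest, 1.59 for Actb and 0.55 for Gapdh, against at most 1.09 and 0.33 in the others. The part of this in the propiconazole step was not tested. Without this array 34 and 35 genes kept their side and 26 and 31 were called, of 1647 genes called in all.

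The difference between the myclobutanil and the propiconazole step was tested itself. It was called for 94 genes (0.896%), 49 of them with the myclobutanil step above the propiconazole step (0.467%) and 45 below it (0.429%). Without the block 0 genes were called (534 at an unadjusted p under 0.05), on the values as deposited 6, without all Rs304 arrays 1, and without the propiconazole array that stood apart 152 (52 above and 100 below). Genes with a larger rise with propiconazole, and no call over the myclobutanil step, were Sfn, the growth arrest protein 14-3-3 sigma (0.16 with myclobutanil, 1.20 with propiconazole), Sdcbp2, a syntenin (0.18 and 0.90), and the serine protease inhibitors Serpina3c (0.21 and 0.99) and Serpina3l (0.14 and 0.89). Ddit3, a stress transcription factor (0.24 and 0.79), and Nqo1, a quinone reductase (-0.03 and 0.64), also differed.

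Vim, the intermediate filament vimentin, was at 0.02 over the myclobutanil step and fell by 0.47 over that of propiconazole, and Ugt2b1 stood at -0.0011 and -0.60. Of the named genes called lower with myclobutanil, 3 passed the test of the difference from propiconazole, with the smaller fall under myclobutanil: Eci1 (-0.56 and -1.03), Acadl (-0.30 and -0.58) and Fgr (-0.26 and -0.62). Without the array that stood apart the differences of Eci1 and Acadl were 0.40 and 0.25 and no longer called (adjusted p 0.0714 and 0.0737). Among the 34 genes called higher 2 passed it, neither of them named here, beside 0.896% of all genes. The rise of Acat2 was 0.49 and 0.45, a difference of 0.04 with a 95% interval of -0.14 to 0.22. One sterol synthesis gene of the 24 tested had a called difference, with the myclobutanil step above, beside 0.467% of all genes. Over the propiconazole step 7 sterol synthesis genes were called higher and 2 lower, beside 9.68% and 9.48% of all genes. Insig1 rose by 0.37 with myclobutanil and stood at 0.09 with propiconazole, a difference of 0.28 (interval 0.09 to 0.48) that did not pass the adjusted test (0.143).

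Against the triadimefon step 0 genes were called (0%), by limma with the block and without it, with 179 and 39 genes at an unadjusted p under 0.05. The smallest p belonged to Eci1 (-0.56 with myclobutanil and -0.16 with triadimefon, difference -0.40, interval -0.63 to -0.17), Fdft1 (0.29 and 0.03, interval of the difference 0.10 to 0.42) and Sqle (0.23 and 0.02, interval 0.08 to 0.35). Cnnm2, a magnesium transport protein, and Fam20c, a kinase of secreted proteins, followed with differences of 0.12 and 0.17. The intervals of single genes are not adjusted for the number of genes.

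**Figure D5:**
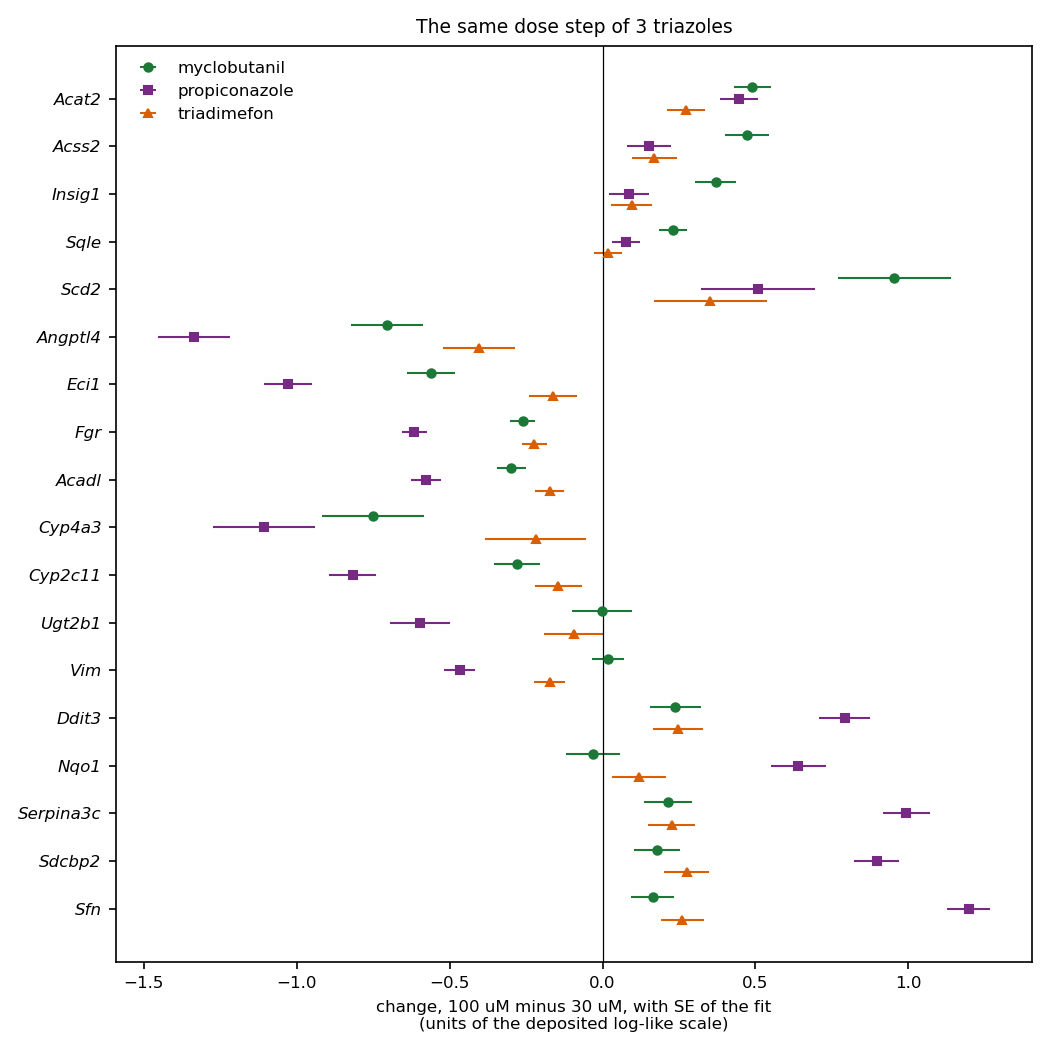
Change between 100 and 30 uM (horizontal axis, units of the deposited log-like scale) of 18 genes with myclobutanil (circles), propiconazole (squares) and triadimefon (triangles), with the SE of the fit as bars. Sfn stood at 0.16 with myclobutanil and 1.20 with propiconazole, while Acat2 moved by 0.49 and 0.45.

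Among 33 endoplasmic reticulum stress and ATF4 genes tested, 1 was called higher and 1 lower, beside 0.324% and 0.334% of all genes. A positive change was seen in 28, against 52.1% of all genes. Their median change was 0.10 (0.03 in Rs256, 0.10 in Rs293 and 0.13 in Rs304). Neither the 15 p53 and growth arrest genes nor the 26 oxidant defence genes tested held a call. At the share called over all genes (0.658%) that is unremarkable. Ddit3 read 0.96, 0.77 and 1.07 at 100 uM and 0.78, 0.62 and 0.69 at 30 uM (change 0.24, adjusted p 0.234). Cdkn1a, the p53 target p21, had differences of -0.26, 0.04 and 0.17 within the codes, and Cyp1a1, the marker of the dioxin receptor, of 0.13, 0.16 and -0.06, so neither had a common direction. Hmox1, heme oxygenase, came closest among the oxidant defence genes with a change of 0.45 (SE 0.108, adjusted p 0.0503), which was 0.10, 0.59 and 0.66 in the 3 codes.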

How the data were processed

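Total RNA of the hepatocytes was labelled with biotin and hybridized to 1 array per sample, per the labels' protocols. The deposited values are a score on a log-like scale, 31099 probe sets by 35 arrays, with array medians near 0. The base, probe summary, background correction and normalization are not given in the sources used here, nor is a genome build. After 57 control probe sets were left out, arrays were quantile normalized in R 4.3.3, because their spreads differed. The platform annotation named 1 gene for 20826 probe sets, several for 436 and none for 9780. A gene was represented by its probe set with the highest mean, and 10490 of 14217 genes lay above the array median in at least 2 of 35 arrays and were tested.

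limma 3.58.1 (lmFit, eBayes, two-sided) was fitted to all 35 arrays with 1 mean per group and the Rs code as a fixed replicate block, and called genes at an adjusted p below 0.05 (Benjamini-Hochberg over all genes). Arrays were compared within the code, which pairs them in the titles. After group means were removed, 100 and 30 uM arrays of the same code correlated at 0.846, 0.809 and 0.768, and those of different codes at -0.716 to -0.151. With 3 arrays in a group, removing its mean itself pushes correlations between different codes below 0, so their sign is not evidence for the pairing. Precision is limited by the 3 arrays of a group.

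Genes named are the 12 largest called rises and falls with the same direction in all 3 codes, called members of the gene lists (of lists of metabolism without one, the 2 smallest p), a set of drug, lipid and stress genes, the 10 smallest p of the step contrast and the 5 smallest of each contrast with another triazole. Unnamed by this rule, a few uncalled list members are given after their values were seen. The arrays, lists and tests were chosen with earlier results of these data known. Promoters are from RefSeq (GRCr8) and were matched by gene identifier. Figures were drawn with matplotlib 3.10.9 in Python 3.11.15.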

Additional observations from a re-analysis of the deposited data

Results flagged for a closer look

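Of the genes named, 12 moved differently over the step between 30 and 100 uM with myclobutanil than with propiconazole. The test was that of the difference in limma, at an adjusted p below 0.05, and it called 0.896% of all genes. Sfn, Serpina3c, Serpina3l, Sdcbp2 and Vim had the smallest p in this contrast, which is itself a rule by which genes were named. Their passing is therefore not independent of the choice, and the count of 12 cannot be set against that share. Each difference is the myclobutanil step minus the propiconazole step. It was negative for Sfn (-1.03, SE 0.099, adjusted p 1.6e-06), Serpina3c (-0.78), Serpina3l (-0.75), Sdcbp2 (-0.72), Nqo1 (-0.67) and Ddit3 (-0.55). It was positive for Ugt2b1 (0.60), Cyp2c11 (0.54), Vim (0.49), Eci1 (0.47), Fgr (0.36) and Acadl (0.28). The propiconazole 30 uM array of Rs293 had the widest spread and the largest 3' minus 5' differences. Without it 10 of the 12 were called again, with differences from -1.06 (Sfn) to 0.58 (Ugt2b1). Without the replicate block 0 of the 12 were called.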

How the results depend on the processing

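All 69 genes called between myclobutanil 100 and 30 uM kept their direction in every alternative run, while the counts did not hold. In most runs the direction could not have changed. Fits without the block or of fewer groups, other filters, each probe set as a feature and a minimum change leave the estimate of a gene as it was. Leaving out a code could not turn it either, as all 69 moved the same way within each code. The deposited values, median centring and leaving out single arrays could have. Median centring left a count of 0, as did the deposited values, while it was 1 with no replicate block, 126 in a fit of the 6 arrays alone (43 of them among the 69), 154 in a fit of the myclobutanil and DMSO arrays (57 among the 69), and 5 (1 higher, 4 lower) with a minimum change of 0.5 units. With each probe set as a feature it was 71, with no filter 64 and with a filter in at least 18 arrays 69. Leaving out a code gave 0 (Rs304) to 24 (Rs256 and Rs293), and leaving out 1 of the 6 arrays gave 6 (30 uM, Rs304) to 66 (30 uM, Rs256), with 12 and 21 without the 100 and the 30 uM array of Rs293 and 32 and 26 without the 100 uM array of Rs256 and Rs304. Of the 36 called genes named, 5 (Acat2, Eci1, Acss2, Fgr and Acadl) were called without each of the 6 arrays in turn, and 0 without each code in turn. The difference from the propiconazole step had 6 calls on the values as deposited, 9 after median centring (3 above, 6 below), 0 with no replicate block, 25 from the arrays of the 2 triazoles alone and 17 with a minimum change of 0.5 units (7 above, 10 below). Leave-outs gave 1 (Rs304) to 152 (propiconazole 30 uM of Rs293, chosen after the data were seen, 52 above and 100 below), with 22 and 56 without Rs293 and Rs256, and 31 to 149 without 1 of the 6 arrays, among them 11 above and 20 below without the 30 uM array of Rs304 and 149 without the 100 uM array of Rs256. The difference from the triadimefon step had 1 call from the arrays of the 2 triazoles alone and 0 otherwise, and the difference between the steps of myclobutanil had 0 throughout. The causes were not tested. RNA quality was measured on the values as deposited, so no separate alternative was run.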

Other observations

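Lists without a call over the step between 30 and 100 uM of myclobutanil are given beside a median of 0.00 and 52.1% positive over all genes. Of 23 lysosome and autophagy genes tested, 20 were positive, with a median of 0.11 (0.07 in Rs256, 0.10 in Rs293 and 0.11 in Rs304) and 0 calls. Sqstm1, the autophagy receptor p62, read 3.32, 3.46 and 3.37 at 100 uM, against 3.24, 3.27 and 3.17 at 30 uM (change 0.16, adjusted p 0.106). Of 27 subunits of mitochondrial respiration 2 were positive, with a median of -0.04 and a lowest change of -0.17, and the medians within Rs256, Rs293 and Rs304 went both ways (0.01, -0.01 and -0.07). Of 27 complement and coagulation genes 6 were positive, with a median of -0.08 (-0.06, -0.08 and -0.11 in the codes). Of 27 acute phase genes 8 were, with a median of -0.07 that was 0.03, -0.09 and -0.08 in the codes.

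In amino acid metabolism, Mat1a, which makes S-adenosylmethionine in liver, read 2.02, 1.96 and 1.97 at 100 uM, against 1.68, 1.56 and 1.72 at 30 uM, without overlap or a call (change 0.33, adjusted p 0.173). Asl, a urea cycle enzyme, differed by 0.21 (adjusted p 0.169). Among conjugation enzymes Gstk1, a mitochondrial and peroxisomal glutathione transferase, differed by 0.43 (adjusted p 0.139) and Nat1, an acetyltransferase, by -0.24 (adjusted p 0.127). In glucose metabolism Pfkfb3, a regulator of glycolysis, differed by 0.21 (adjusted p 0.135), and in retinoid metabolism Rarb, a retinoic acid receptor, by 0.27 (adjusted p 0.277).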
